A study of Capra hircus with 13 samples.

Results

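The transcripts of 10 antioxidant enzyme genes were followed through early goat development and after loss of *YTHDF2*. They are the glutathione peroxidases *GPX1*, *GPX2* and *GPX4*, the peroxiredoxins *PRDX1*, *PRDX2*, *PRDX3*, *PRDX5* and *PRDX6*, and the superoxide dismutases *SOD1* and *SOD2*, 10 of the 18138 genes listed for every library. They were chosen by family, as enzymes that remove reactive oxygen species, and by the FPKM values of the *YTHDF2* knockdown, in which *GPX2* fell furthest. The knockdown values of these genes are therefore given as a description. The rule names no stage difference, but earlier results of the stages were known when the genes were chosen, and it gives no reason for leaving out other family members such as *GPX3*, *GPX8* and *PRDX4*, which were read with the partner genes. Levels are in FPKM, fragments scaled to the length of the gene model and to the size of the library. All 10 genes passed the filter on low values, an average of 1 FPKM or more over the libraries of a fit, in both fits.

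Expression was measured by RNA-seq in 13 goat (*Capra hircus*) libraries. MII oocytes, which are mature oocytes arrested at metaphase II before fertilization, 4-cell stage embryos and 8-cell stage embryos had 3 libraries each and were untreated; the study took them from 2 earlier studies of its own and does not say which library came from which, so stage and study of origin cannot be told apart. The injected groups had 2 libraries each, of 8-cell stage embryos injected as zygotes 8 h after in vitro fertilization (IVF) with negative control (NC) siRNA, titled WT in the labels, or with a mixture of 2 *YTHDF2* siRNAs at 20 µM. Each injected library pooled 15 embryos, and nothing in the labels says that the replicates of a group are separate cultures, so the p-values measure the spread between these libraries. *YTHDF2* encodes a reader of the RNA mark N6-methyladenosine (m6A) that promotes the decay of bound mRNAs.

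Superoxide dismutases turn superoxide into hydrogen peroxide and oxygen, SOD1 with copper and zinc mainly in the cytosol and SOD2 with manganese in the mitochondrial matrix. Glutathione peroxidases and peroxiredoxins then reduce peroxides, the former with electrons from glutathione and the latter mostly with electrons from thioredoxin. Oocytes and cleavage embryos are exposed to peroxides of their own metabolism and of the culture, and the first divisions run on mRNAs and proteins stored in the oocyte until the embryonic genome is activated.

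The untreated libraries held 26853876 to 42495116 fragments, recovered from the steps of the FPKM values, which put 18 to 188 fragments behind the *GPX2* value of a library and 27292 to 131315 behind that of *PRDX6*. For the injected libraries the steps could not be read, and their depth is unknown. Only 64.9 to 66.3% of the MII fragments, but 94.7 to 97.0% of the fragments of the untreated embryos, lay on the 18159 genes listed at all 3 stages, and the FPKM of an MII library refers to all its fragments. The median difference of all 9090 tested genes was above 0 on the log2 scale against MII, 0.29 for 4-cell and 0.37 for 8-cell embryos. Whether the share of MII fragments on these genes led to this was not tested. With 3 rescalings the median was between -0.14 and 0.06. As deposited, 79.4% of all calls in 4-cell and 73.2% in 8-cell embryos were higher than in MII oocytes. After rescaling, the shares were 41.5 to 53.7% and 47.5 to 50.2%. Between the embryo stages 36.9% of calls were higher at the 8-cell stage, and 51.2% when libraries were set to the same summed FPKM. Summed oocyte markers, mostly *GDF9*, *BMP15*, *ZP2* and *ZP4*, were at 1528 to 2473 FPKM in MII, 2121 to 3447 FPKM in 4-cell and 2500 to 3045 FPKM in untreated 8-cell libraries. They were at 479 to 752 FPKM in NC and 972 to 1894 FPKM in knockdown libraries, which did not overlap. Across the untreated stages not all of these markers followed the sums. *ZP3* was at 52.7, 211 and 64.25 FPKM in MII, at 28.4, 82.4 and 29.6 FPKM in 4-cell and at 65.9, 23.3 and 27.3 FPKM in 8-cell libraries. *MOS* was at 152.5, 111.1 and 148.9 FPKM, at 53.4, 158 and 40.5 FPKM and at 236, 38.1 and 78.55 FPKM in the same order. *NLRP5* and *ZAR1* were low throughout. Summed genome activation markers were at 10.4 to 14.2 FPKM in MII libraries, at 54.3 to 127 FPKM in 4-cell libraries, at 334 to 1380 FPKM in untreated 8-cell libraries and at 3123 to 3905 FPKM in injected ones. Summed cumulus and granulosa cell markers, mostly *STAR*, *HAS2* and *VCAN*, were at 58.3 to 76.2 FPKM in MII, 69.8 to 76.3 FPKM in 4-cell and 99.3 to 151 FPKM in untreated 8-cell libraries, with *AMH* at 0 in each. They were at 47.9 to 57.0 FPKM in NC and, above these, at 84.92 to 94.98 FPKM in knockdown libraries. The 4 sperm markers listed in all tables summed to 0.216 to 1.11 FPKM in untreated, 12.25 to 12.81 FPKM in NC and 3.54 to 25.2 FPKM in knockdown libraries. Most of the injected sums was *TNP2* alone, at 11.06 and 11.86 FPKM in NC and at 24.35 and 2.62 FPKM in knockdown libraries. The part of these markers in the results was not tested, and in such bulk samples fewer cells of a type and less RNA per cell cannot be told apart.

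MII replicate 2 stood apart for these enzymes. It lay above both other MII libraries for 9 of the 10 genes and more than 2-fold above both for 5, against 47.2% and 9.69% of all tested genes. *PRDX1* was 9.27-fold, *GPX2* 8.09-fold, *GPX4* 4.76-fold, *GPX1* 3.01-fold and *PRDX2* 2.01-fold above the higher of the other MII libraries, while *PRDX3* lay below both. Values without this library are therefore given where they change a call or the size of a difference.

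Across the untreated stages, *PRDX6* rose from MII oocytes to 4-cell and 8-cell stage embryos, the 4-cell rise being lost under 2 of the 3 rescalings, and *PRDX3* was lower in 8-cell embryos than in MII oocytes and 4-cell embryos. *SOD1* was lower at the 8-cell stage than in MII oocytes with all libraries, a call that held in 2 of 9 cases with a library left out. *SOD2* was slightly higher in embryos than in MII oocytes as deposited, which held under 0 of the 3 rescalings and, with a library left out, in 1 of 9 cases for 4-cell and 0 of 9 for 8-cell embryos. At the 4-cell stage 2 of the 10 genes were higher than in MII oocytes by the adjusted p of limma under 0.05 (24.7% of all tested genes) and 0 were lower (6.42% of all). No gene fell below an unadjusted p of 0.05 in the lower direction there, and limma voom on recovered fragments also called 0. At the 8-cell stage 2 were higher (27.3% of all) and 2 lower than in MII oocytes (10% of all), and from the 4-cell to the 8-cell stage 0 were higher (3.06% of all) and 1 was lower (5.24% of all). One gene, *PRDX6*, was higher in that last comparison at an unadjusted p under 0.05, and voom called it as well. The median log2 difference of the 10 genes was 0.54, 0.18 and -0.60 in the 3 comparisons, against 0.29, 0.37 and 0.07 over all tested genes. By the study's own rule, an unadjusted p under 0.05 with more than 2-fold change, 3 genes were higher (16.7% of all) and 0 lower (6.06%) in 4-cell embryos than in MII oocytes. By the same rule 2 were higher (19.8%) and 1 lower (8.14%) in 8-cell embryos than in MII oocytes, and 0 higher (4.55%) and 1 lower (4.28%) in 8-cell than in 4-cell embryos.

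*PRDX6* encodes a peroxiredoxin with a lone catalytic cysteine, which reduces phospholipid hydroperoxides with glutathione and also acts on phospholipids as a lipase. It was at 426, 765 and 506 FPKM in the MII libraries, at 1018, 1378 and 1277 FPKM in the 4-cell libraries and at 1960, 2215 and 2312 FPKM in the 8-cell libraries. The 3 stages did not overlap. On the log2(FPKM + 1) scale 4-cell embryos differed from MII oocytes by 1.15 ± 0.22 (SE, n = 3 against 3, adjusted p = 0.00459 by limma) and 8-cell embryos by 1.97 ± 0.22 (adjusted p = 0.000239). The step from 4 to 8 cells, 0.83 ± 0.22 on the same scale, missed the threshold (adjusted p = 0.0524). It passed with its size unchanged without MII replicate 2 (adjusted p = 0.0292). The 8-cell difference to MII passed in all 18 alternatives, with differences of 1.35 to 2.21. The 4-cell difference passed without any one library, and did not pass at the same summed FPKM (0.61, adjusted p = 0.0817) or after quantile normalization (0.61, adjusted p = 0.0637).

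*PRDX1*, an abundant cytosolic peroxiredoxin that passes electrons from thioredoxin, followed another course. It was at 98.1, 910 and 91.4 FPKM in the MII libraries, at 816, 752 and 1109 FPKM in the 4-cell libraries and at 290, 446 and 377 FPKM in the 8-cell libraries. MII replicate 2 alone reached the 4-cell range, and the 8-cell libraries all lay below the 4-cell ones. With all libraries the 4-cell difference to MII, 2.12 ± 0.73 on the log2 scale, did not pass (adjusted p = 0.0534), nor did the 8-cell difference to MII of 0.85 ± 0.73 (adjusted p = 0.391) or that from 4 to 8 cells of -1.27 ± 0.73 (adjusted p = 0.324). Without MII replicate 2 the first was 3.20 (adjusted p = 0.000137), the 8-cell difference to MII 1.94 (adjusted p = 0.000706) and the unchanged difference from 4 to 8 cells passed as well (adjusted p = 0.0168). The 4-cell difference also passed without 8-cell replicate 1, with a pseudocount of 0.1 and at a mean of at least 5 FPKM, and voom called it (2.15, adjusted p = 0.0294). It did not pass under any rescaling (adjusted p up to 0.144).

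*PRDX2*, the closely related cytosolic enzyme that is best known from red blood cells, was at 46.0, 92.5 and 30.7 FPKM in the MII libraries, at 63.3, 47.7 and 55.1 FPKM in the 4-cell libraries and at 32.8, 28.4 and 29.2 FPKM in the 8-cell libraries. The 8-cell libraries lay below all 4-cell libraries, and the MII libraries spanned both ranges. No stage difference passed with all libraries as deposited. The 8-cell difference to MII, -0.74 ± 0.34 (adjusted p = 0.114), passed under each of the 3 rescalings (-1.17 to -1.11, adjusted p = 0.0175 to 0.0258) and without MII replicate 3 (adjusted p = 0.0241), and was -0.31 without MII replicate 2 (adjusted p = 0.328). The fall from 4 to 8 cells, -0.85 ± 0.34 (adjusted p = 0.161), passed with its size unchanged without MII replicate 2 (adjusted p = 0.0422).

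*PRDX3*, the peroxiredoxin of the mitochondrial matrix, was at 70.8, 62.1 and 89.2 FPKM in the MII libraries, at 74.5, 70.7 and 99.1 FPKM in the 4-cell libraries and at 36.7, 41.9 and 43.1 FPKM in the 8-cell libraries. All 8-cell libraries lay below all 6 libraries of the earlier stages. Against MII the 8-cell difference was -0.84 ± 0.20 (adjusted p = 0.00856), which passed in all 18 alternatives. The fall from 4 to 8 cells was -0.98 ± 0.20 (adjusted p = 0.0201), which did not pass without 4-cell replicate 1, 4-cell replicate 3 or 8-cell replicate 3 (adjusted p up to 0.0721), nor with median-ratio scaling (adjusted p = 0.0722). MII and 4-cell libraries differed by 0.14, with a 95% interval of -0.30 to 0.57.

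*PRDX5*, which is found in mitochondria, peroxisomes and the cytosol, was at 13.8, 31.5 and 20.3 FPKM in the MII libraries, at 23.8, 43.3 and 29.3 FPKM in the 4-cell libraries and at 14.1, 16.9 and 9.80 FPKM in the 8-cell libraries. The 8-cell libraries lay below the 4-cell libraries and overlapped with MII. The fall from 4 to 8 cells, -1.17 ± 0.34, missed the threshold (adjusted p = 0.0632). It passed with its size unchanged without MII replicate 2 (adjusted p = 0.0482). It also passed at a mean of at least 5 FPKM and with median-ratio scaling (-1.24, adjusted p = 0.0457). At the same summed FPKM and after quantile normalization it did not pass (adjusted p = 0.0992 and 0.0509). Against MII the 8-cell difference was -0.60 ± 0.34 (adjusted p = 0.190) as deposited and -1.02 to -0.96 after rescaling (adjusted p = 0.0321 to 0.0489), and -0.31 without MII replicate 2 (adjusted p = 0.503).

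**Figure D1:**
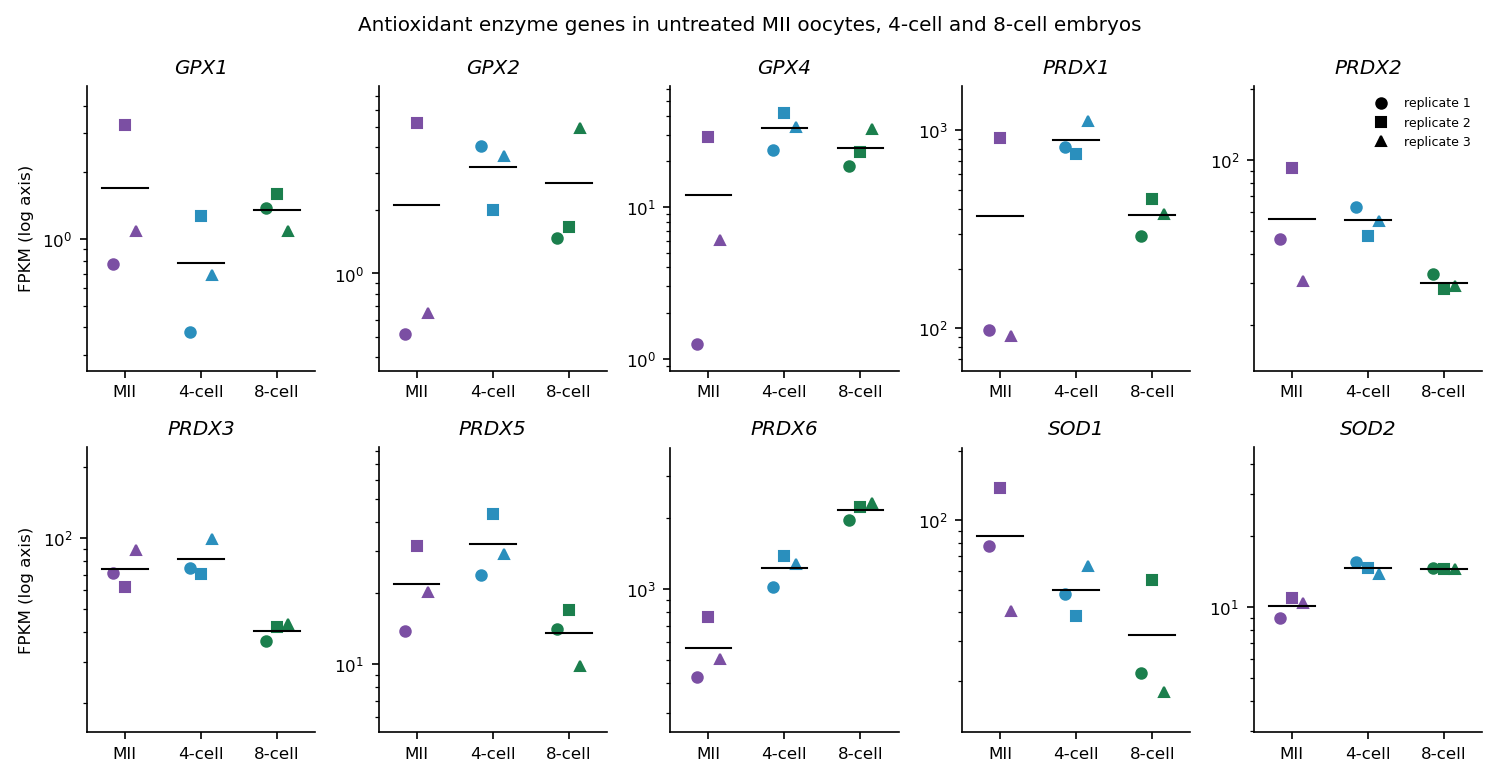
FPKM (log axis) of the 10 antioxidant enzyme genes in the 9 untreated libraries, with circles, squares and triangles for replicates 1, 2 and 3 and a bar at the mean of each stage. *PRDX6* climbs from 426 to 765 FPKM in MII to 1960 to 2312 FPKM at the 8-cell stage, and MII replicate 2 (square) is above both other MII libraries for 9 of 10 genes.

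*SOD1* transcripts were at 77.3, 138 and 40.4 FPKM in the MII libraries, at 48.0, 38.3 and 63.5 FPKM in the 4-cell libraries and at 21.7, 55.2 and 18.0 FPKM in the 8-cell libraries. The stages overlapped, since 8-cell replicate 2 lay above MII replicate 3. The 8-cell difference to MII was -1.40 ± 0.49, which passed the threshold closely (adjusted p = 0.0494). Without 1 library at a time it still passed without MII replicate 3 or 8-cell replicate 2 and did not pass in the other 7 cases (adjusted p up to 0.161), among them without MII replicate 2 (-0.97, adjusted p = 0.150). Each rescaling kept the call (-1.88 to -1.77), and voom did not (adjusted p = 0.0629).

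*SOD2* varied little within the stages, with 8.96, 10.9 and 10.3 FPKM in the MII libraries, 15.5, 14.6 and 13.8 FPKM in the 4-cell libraries and 14.5, 14.5 and 14.4 FPKM in the 8-cell libraries. All 6 embryo libraries lay above all MII libraries. The differences to MII were small and not far from the shift of all genes, with 0.50 ± 0.17 for 4-cell embryos (adjusted p = 0.0465) and 0.49 ± 0.17 for 8-cell embryos (adjusted p = 0.0439). Neither passed under any rescaling, where they were 0.0028 to 0.22 and 0.10 to 0.14. With 1 library left out, the 4-cell call held only without 8-cell replicate 1 and the 8-cell call in 0 of 9 cases (adjusted p up to 0.173 and 0.165). The 8-cell and 4-cell stages differed by -0.01, with a 95% interval of -0.39 to 0.36.

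Of the glutathione peroxidases, *GPX4* was clearly expressed in untreated embryos and *GPX1* and *GPX2* were low. *GPX4*, the selenoenzyme that reduces lipid hydroperoxides within membranes, was at 1.25, 28.8 and 6.05 FPKM in the MII libraries, at 23.7, 41.9 and 33.6 FPKM in the 4-cell libraries and at 18.6, 23.0 and 32.5 FPKM in the 8-cell libraries. MII replicate 2 lay within the range of the embryos and the other MII libraries below it. The differences to MII, 2.09 ± 0.75 in 4-cell embryos (adjusted p = 0.0602) and 1.69 ± 0.75 in 8-cell embryos (adjusted p = 0.106), did not pass with this library and passed without it (3.06, adjusted p = 0.00242, and 2.65, adjusted p = 0.00377). Voom called the 4-cell difference (2.39, adjusted p = 0.0350).

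*GPX2*, a selenoenzyme best known from the lining of the gut, was at 0.515, 5.22 and 0.645 FPKM in the MII libraries, at 4.05, 2.00 and 3.61 FPKM in the 4-cell libraries and at 1.48, 1.67 and 4.93 FPKM in the 8-cell libraries. *GPX1*, the widespread cytosolic enzyme, was at 0.771, 3.27 and 1.09 FPKM in the MII libraries, at 0.382, 1.27 and 0.689 FPKM in the 4-cell libraries and at 1.38, 1.60 and 1.09 FPKM in the 8-cell libraries. The stages overlapped for both genes, and neither passed in any stage comparison with all libraries. For *GPX2* the differences to MII were 0.73, with a 95% interval of -0.53 to 1.98, at the 4-cell stage and 0.45, with an interval of -0.81 to 1.71, at the 8-cell stage. Without MII replicate 2 the 4-cell difference of *GPX2* was 1.38 (adjusted p = 0.0429) and the 8-cell difference 1.11 (adjusted p = 0.0783). *GPX1*, with 10 to 105 fragments behind the value of a library, differed from MII by -0.53 at the 4-cell stage, with a 95% interval of -1.32 to 0.27, and by -0.10 at the 8-cell stage, with an interval of -0.90 to 0.70. Without MII replicate 2 these differences were -0.14 and 0.29 (adjusted p = 0.776 and 0.515).

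**Figure D2:**
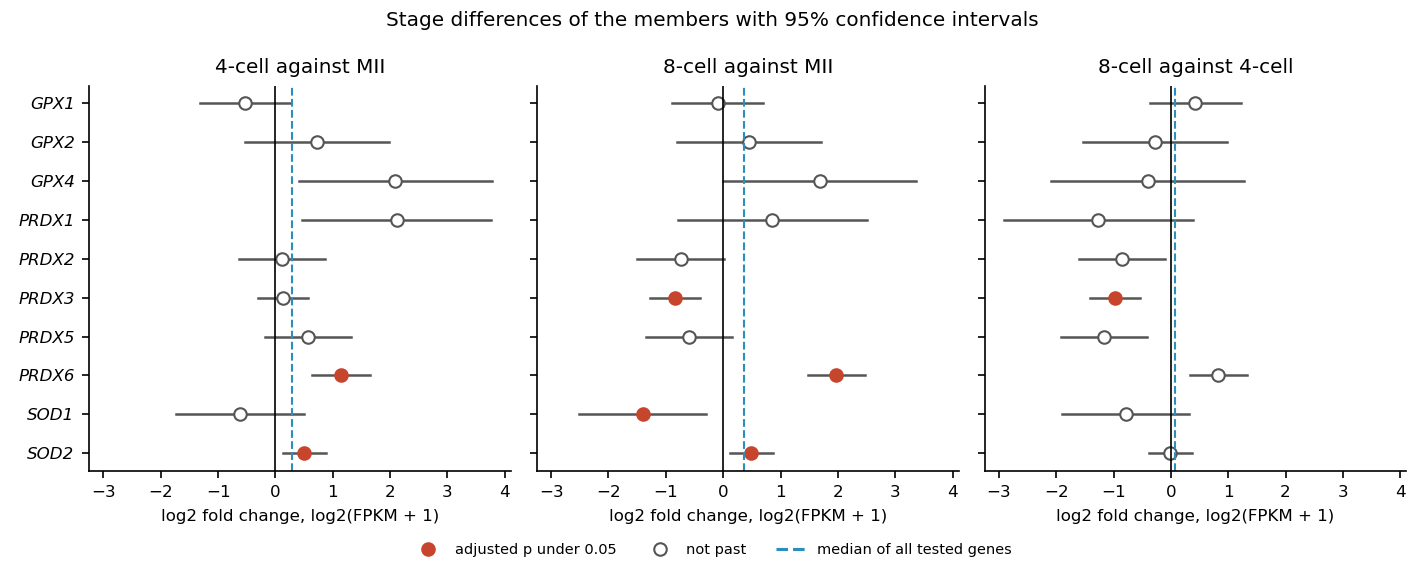
Differences in log2(FPKM + 1) between untreated stages, with 95% confidence intervals from limma (9 libraries in 1 fit), filled circles where the adjusted p was under 0.05 and a dashed line at the median of all 9090 tested genes. *PRDX6* and *SOD2* are filled in both comparisons with MII, *PRDX3* and *SOD1* at the 8-cell stage against MII, and *PRDX3* alone at the 8-cell against the 4-cell stage.

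FPKM is a level per length of the gene model, so levels can be set beside each other. In all 3 untreated groups *PRDX6* and *PRDX1* had the highest mean levels and *GPX2* and *GPX1* the lowest. In MII oocytes the ranges of neighbours in this order overlapped from *PRDX6* down to *SOD2*, which lay above *GPX2*. In 4-cell embryos *PRDX6* (1225 FPKM) and *PRDX1* (893 FPKM) overlapped and stood above *PRDX3* (81.4 FPKM). In 8-cell embryos *PRDX6* (2162 FPKM) stood above *PRDX1* (371 FPKM), which stood above *PRDX3* (40.6 FPKM). As a share of the summed FPKM of the 10 genes, *PRDX6* made up 37.4 to 63.6% in MII, 47.6 to 57.7% in 4-cell and 77.9 to 82.0% in untreated 8-cell libraries, and *PRDX1* made up 11.5 to 44.4%, 31.5 to 41.3% and 12.1 to 15.7%. Together the 10 genes held 0.268 to 0.757% of the FPKM summed over the 18159 genes listed at all 3 stages, which hold only 64.9 to 66.3% of the fragments of an MII library.

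**Figure D3:**
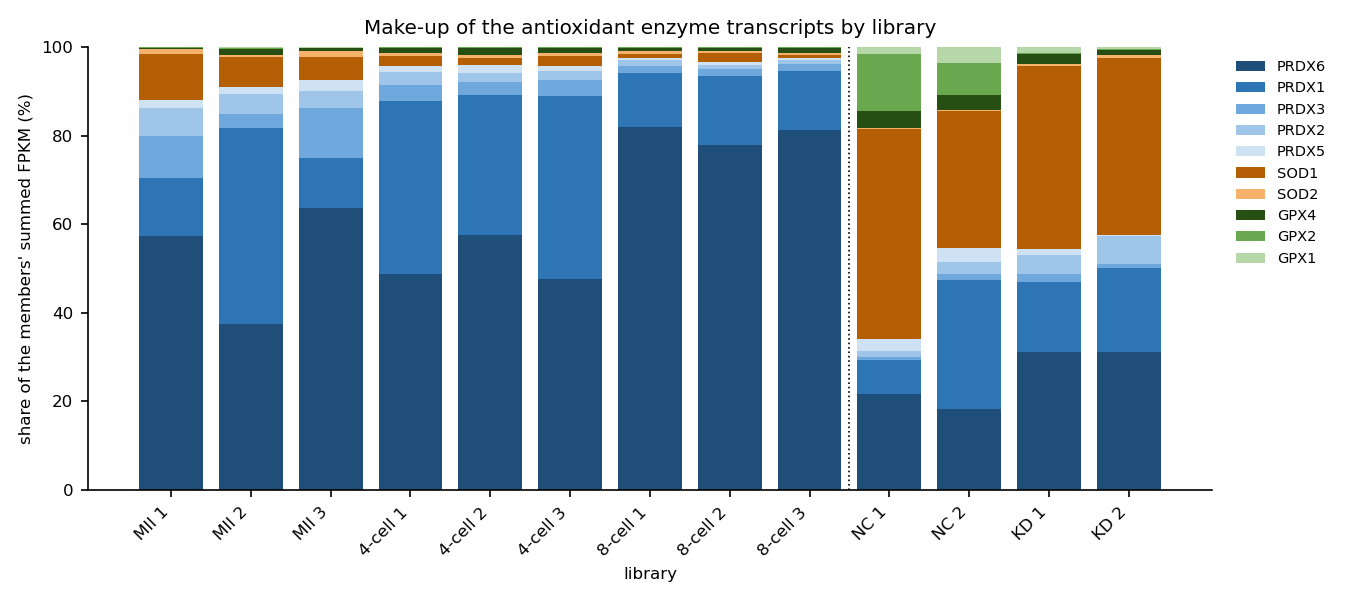
Share of each gene in the summed FPKM of the 10 genes (stacked bars to 100%), 1 bar per library, with untreated libraries to the left of the dotted line and NC and *YTHDF2* knockdown (KD) libraries to the right. *PRDX6* fills 77.9 to 82.0% of the untreated 8-cell bars and 18.2 to 31.3% of the injected ones, where *SOD1* takes 31.1 to 47.5%.

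Likeness between genes was described by Pearson's r of log2(FPKM + 1) over the 9 untreated libraries, which share stages and, for most of these genes, the high MII replicate 2. *GPX2* and *GPX4* were most like *PRDX1* (r = 0.83 and 0.87), *PRDX6* and *SOD2* were most like each other (r = 0.86), and so were *SOD1* and *PRDX2* (r = 0.74). *PRDX3* was most like *PRDX5* (r = 0.58) and least like *PRDX6* (r = -0.67). Among the 3955 genes averaging 10 FPKM or more, those most like *GPX2* were *UBE2Q1* (r = 0.90), *CDKN2AIPNL* (r = 0.87), *FANK1* (r = 0.87), *CNBD2* (r = 0.87) and *PARK7* (r = 0.86).

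The enzymes work with partners that supply electrons, glutathione, selenium and NADPH, and a list of 64 such genes and other family members was read beside them. Of these, 51 were listed at all stages and 37 passed the filter. At the 4-cell stage 10 rose (24.7% of all tested genes) and 1 fell (6.42%) against MII, at the 8-cell stage 10 rose (27.3%) and 2 fell (10%), and from 4 to 8 cells 1 rose (3.06%) and 2 fell (5.24%). The median differences of the list were 0.26, 0.19 and -0.02 on the log2 scale, against 0.29, 0.37 and 0.07 over all tested genes. Under the 3 rescalings 2 to 3 rose (9.58 to 12.6% of all tested genes) and 5 to 6 fell (10.5 to 13.5%) at the 4-cell stage against MII. At the 8-cell stage 3 to 5 rose (14.8 to 15.7%) and 5 to 8 fell (15 to 17.1%). The medians of the list were then -0.25 to -0.02 and -0.30 to -0.24, so neither balance of rises over falls against MII held. Of the thioredoxin system, 4 of 7 tested genes rose in each comparison with MII (24.7 and 27.3% of all tested genes) and 0 fell, with an unadjusted p under 0.05 in the lower direction for 0 and 0 called lower by voom. Voom called 3 genes higher in 4-cell embryos (25.9% of all tested genes) and 4 in 8-cell embryos (28.4%). Under rescaling 2 were higher in 4-cell embryos, *SESN1* and *SESN3* (9.58 to 12.6% of all tested genes), and 1 to 2 in 8-cell embryos, *TXN* each time (14.8 to 15.7%). Again 0 were lower (10.5 to 13.5% and 15 to 17.1% of all). Of the 5 tested genes nearest to the 10, namely *GPX3*, *GPX8*, *PRDX4*, catalase (*CAT*) and *CCS*, the copper chaperone of SOD1, 0 passed in any stage comparison by limma as deposited or by voom, and 1 had an unadjusted p under 0.05 in each of the lower 4-cell against MII and 8-cell against 4-cell directions. Under rescaling, *CAT* was called lower in 4-cell embryos than in MII oocytes by 2 of the 3 settings and in 8-cell embryos by 1, and *GPX3* in 8-cell embryos by 2, which was looked up after their values were seen. *SOD3* did not reach the filter.

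*TXN*, the thioredoxin that returns electrons to most peroxiredoxins, was at 10.2, 26.1 and 11.6 FPKM in the MII libraries, at 51.4, 37.0 and 40.1 FPKM in the 4-cell libraries and at 31.8, 129 and 57.4 FPKM in the 8-cell libraries. All embryo libraries lay above all MII libraries, and MII replicate 2 was again the highest of its group. The 8-cell difference of 2.00 ± 0.48 (adjusted p = 0.0102) passed in all 18 alternatives. The 4-cell difference of 1.47 ± 0.48 (adjusted p = 0.0447) did not pass without MII replicate 1 or 3, any one 4-cell library or 8-cell replicate 3 (adjusted p up to 0.151). Nor did it pass under any rescaling, without the filter on low values, without the mean-variance trend or with voom (adjusted p up to 0.167).

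*SESN3*, a sestrin tied to the regeneration of peroxiredoxins, had a mean of 20.1 FPKM in MII oocytes and 51.3 FPKM at each embryo stage, with differences of 1.31 ± 0.21 (adjusted p = 0.00190) and 1.29 ± 0.21 (adjusted p = 0.00151), the latter missing the threshold with median-ratio scaling (adjusted p = 0.0523). *SESN1*, of the same family, rose by 1.48 ± 0.24 at the 4-cell stage (adjusted p = 0.00195). *FTH1*, the ferritin heavy chain that stores iron, was at 147, 186 and 193 FPKM in the MII libraries, at 265, 329 and 343 FPKM in the 4-cell libraries and at 490, 535 and 594 FPKM in the 8-cell libraries. The 3 stages of *FTH1* did not overlap, and its 8-cell difference to MII was 1.62 ± 0.17 (adjusted p = 0.000165). Its 4-cell difference of 0.83 ± 0.17 (adjusted p = 0.00572) did not pass under any rescaling (adjusted p up to 0.260).

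Genes of glutathione metabolism moved in both directions. *GCLC*, the catalytic subunit of the first enzyme of glutathione synthesis, was at 104, 126 and 90.1 FPKM in the MII libraries and at 47.7, 36.8 and 37.9 FPKM in the 8-cell libraries, a difference of -1.36 ± 0.18 (adjusted p = 0.000511). *MGST3*, a microsomal glutathione transferase, fell from a mean of 25.4 to 4.42 FPKM (-2.35 ± 0.35, adjusted p = 0.000909). *GLRX5*, a mitochondrial glutaredoxin, rose by 1.34 ± 0.22 over the same stages (adjusted p = 0.00134). These 3 differences passed in all 18 alternatives. At the 4-cell stage *MGST1*, of the same family as *MGST3*, rose by 1.40 ± 0.33 (adjusted p = 0.0103) and *MGST3* fell by 1.17 ± 0.35 on the log2 scale (adjusted p = 0.0304). Neither call held throughout, since *MGST1* did not pass under any rescaling (adjusted p up to 0.0637), and *MGST3* did not pass without MII replicate 1 or 2 or without any one 4-cell library (adjusted p up to 0.103). That of *MGST3* was also lost without the filter on low values and with a replicate block (adjusted p up to 0.0644). *SEPSECS*, which makes selenocysteine on its tRNA, was at 18.2, 16.6 and 19.1 FPKM in the 4-cell and at 6.51, 8.79 and 7.27 FPKM in the 8-cell libraries (-1.16 ± 0.20, adjusted p = 0.0113), and missed the threshold without 4-cell replicate 3 (adjusted p = 0.0511). *GCLC* and *FTH1* also passed between the 4-cell and 8-cell stages (-0.86 and 0.79), and did not pass without any one of 5 and 4 libraries, 4-cell replicates 1 and 3 and 8-cell replicates 2 and 3 for both and MII replicate 1 for *GCLC* (adjusted p up to 0.0836 and 0.0853). That of *FTH1* was also lost with median-ratio scaling (adjusted p = 0.131).

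The knockdown was checked on its target first. *YTHDF2* was at 112 and 159 FPKM in the NC libraries and at 8.07 and 4.47 FPKM in the knockdown libraries, which lay below both. In untreated 8-cell libraries it was at 10.8, 16.7 and 12.5 FPKM, so the NC libraries were far above the untreated ones, which were made and normalized apart. The antisense strands of the 2 siRNAs are shown 5′ to 3′ as the agent that defines the knockdown, with the seed, bases 2 to 8, in capitals.
s28148: uUGCUAGCaauaucagcccaa
s28147: uGGUCUAUaguauucaugcca

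In *YTHDF2* knockdown embryos the 3 glutathione peroxidases among the 10 genes and *PRDX5* were lower than in NC embryos, and *PRDX2* was higher. Other tested glutathione peroxidases did not share this fall. *GPX8* was at 3.08 and 0.64 FPKM in the NC and at 3.7 and 8.64 FPKM in the knockdown libraries. The groups overlapped for *GPX6* (2.54 and 5.69 against 17.5 and 3.48 FPKM) and *GPX3* (2.7 and 1.13 against 0.55 and 1.28 FPKM). By a difference of more than 1 on the log2 scale with no overlap between the libraries, 4 of the 10 genes were lower, where 15.1% of all 11004 tested genes were, and 1 was higher, where 9.49% were. Since this contrast took part in the choice of the genes, nothing is read from these counts and no p is given. The median difference of the 10 genes was 0.15, against 0.01 over all tested genes.

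*GPX2* was at 370 and 108 FPKM in the NC libraries and at 6.57 and 3.74 FPKM in the knockdown libraries. Both knockdown libraries lay far below both NC libraries, which themselves differed widely. The difference of -5.07 ± 0.53 on the log2(FPKM + 1) scale (SE, n = 2 against 2) was, with all libraries, the furthest fall of any gene averaging 10 FPKM or more, by which it was chosen, and the ratio of the means was 46.4. Without NC replicate 1 the difference was -4.19 and the ratio 21.0, and without NC replicate 2 they were -5.95 and 71.7. Without knockdown replicate 1 they were -5.41 and 63.9, and without knockdown replicate 2 -4.73 and 36.4, so the fall kept its direction and its size varied with each library. The next gene in that order was *LOC102175997* at -4.93.

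*GPX1* was at 42.7 and 51.9 FPKM in the NC libraries and at 21.5 and 13.9 FPKM in the knockdown libraries, a difference of -1.39 ± 0.42. *GPX4* was at 111 and 46.9 FPKM in the NC libraries and at 36.9 and 28.4 FPKM in the knockdown libraries, a difference of -1.14 ± 0.46. The knockdown libraries of both genes lay below the NC libraries. The size of the *GPX4* difference varied with the libraries, being -0.52 without NC replicate 1, -1.75 without NC replicate 2, -1.32 without knockdown replicate 1 and -0.95 without knockdown replicate 2. *PRDX5* was at 74.9 and 46.6 FPKM in the NC libraries and at 24.2 and 10.6 FPKM in the knockdown libraries, a difference of -1.81 ± 0.47 with no overlap.

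*PRDX2* went the other way, from 40.7 and 39.2 FPKM in the NC libraries to 73.9 and 153 FPKM in the knockdown libraries, a difference of 1.39 ± 0.43 that was 0.87 without knockdown replicate 2. *PRDX3* was at 17.6 and 17.7 FPKM in the NC libraries and at 28.7 and 22.5 FPKM in the knockdown libraries (0.50 ± 0.41), and *SOD2* at 8.16 and 3.67 against 8.30 and 15.3 FPKM (0.91 ± 0.48). The knockdown libraries of both lay above the NC libraries, for *SOD2* by little, and with all libraries the differences were under 1 on the log2 scale. That of *SOD2* was 1.40 without NC replicate 1, 1.32 without knockdown replicate 1, 0.43 without NC replicate 2 and 0.51 without knockdown replicate 2. The groups overlapped for the 3 most abundant genes. *SOD1* was at 1365 and 455 FPKM in the NC and at 710 and 987 FPKM in the knockdown libraries (0.09 ± 0.46), *PRDX6* at 620 and 267 against 536 and 774 FPKM (0.66 ± 0.43), and *PRDX1* at 224 and 428 against 273 and 468 FPKM (0.21 ± 0.43). The *PRDX6* difference was 1.27 without NC replicate 1 and 0.05 without NC replicate 2, and that of *PRDX1* was -0.26 and 0.67. For *SOD1* both knockdown libraries lay between the NC libraries, and the difference was 0.88 without NC replicate 1 and -0.70 without NC replicate 2.

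**Figure D4:**
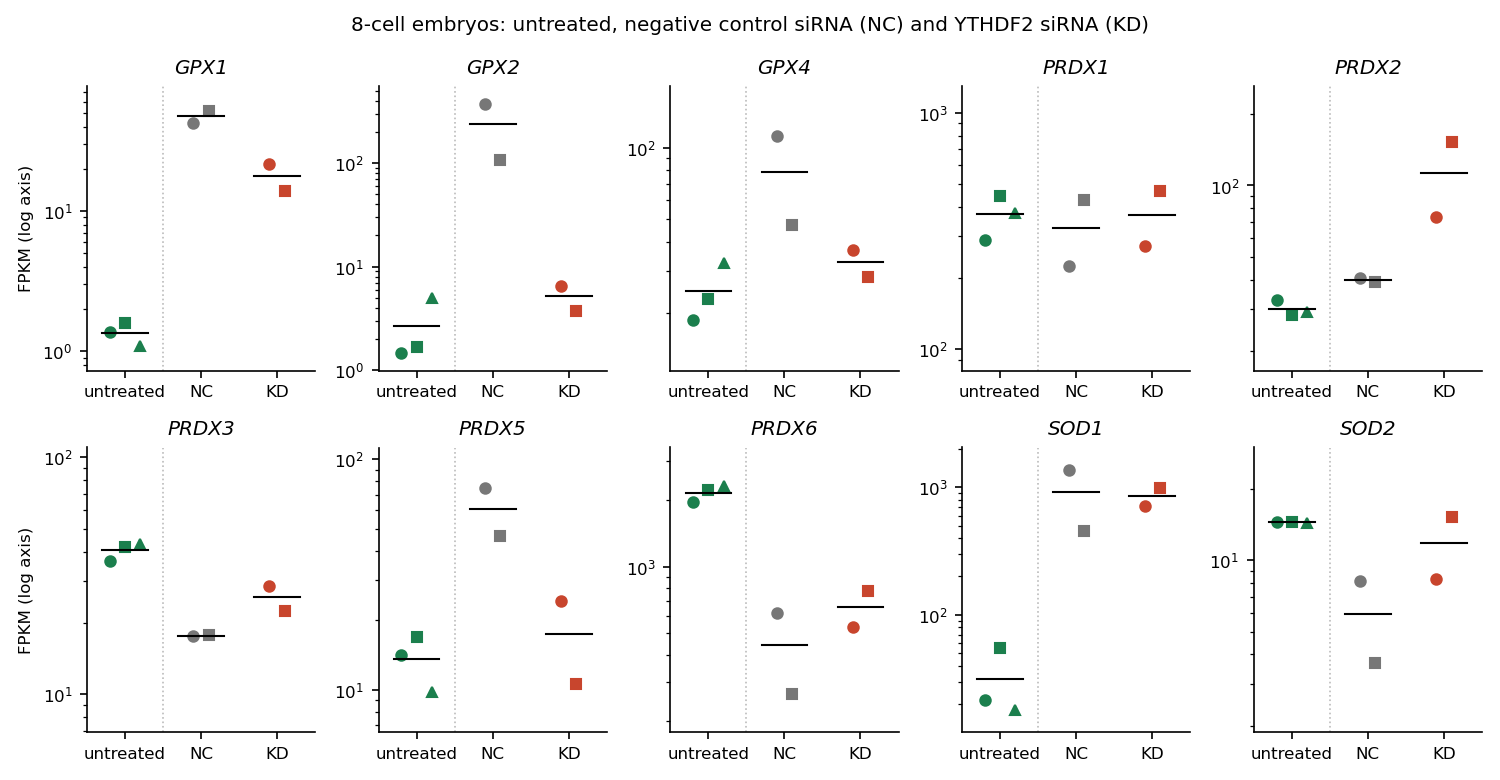
FPKM (log axis) of the 10 genes in 8-cell stage embryos, untreated (3 libraries, normalized apart, left of the dotted line), NC siRNA (2) and *YTHDF2* siRNA (KD, 2), with a bar at each mean. *GPX2* is at 108 to 370 FPKM in NC, at 3.74 to 6.57 FPKM in KD and at 1.48 to 4.93 FPKM in untreated libraries.

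The levels of NC embryos and untreated 8-cell embryos are set side by side without a test, since the tables were normalized separately, and injection, culture and sequencing of the groups cannot be told apart. The NC mean was above the untreated mean by 88.7-fold for *GPX2*, 34.9-fold for *GPX1*, 28.7-fold for *SOD1*, 4.46-fold for *PRDX5* and 3.21-fold for *GPX4*. It was below the untreated mean for *PRDX6*, *SOD2* and *PRDX3*, by 4.88-fold, 2.45-fold and 2.30-fold. The libraries of the groups did not overlap for any of these 8 genes, but the size of several ratios rested on single libraries. That of *GPX2* was 40.1 without NC replicate 1, 137 without NC replicate 2 and 152 without untreated 8-cell replicate 3, and that of *SOD1* was 14.4 and 43.1 without these NC libraries and 45.8 without untreated 8-cell replicate 2. Without NC replicate 1 the ratio was 1.90 for *GPX4*, and the NC mean was 8.10-fold below for *PRDX6* and 3.95-fold below for *SOD2*. The knockdown libraries overlapped the untreated 8-cell libraries for *GPX2*, *GPX4*, *PRDX1*, *PRDX5* and *SOD2*, and lay above them for *GPX1*, *PRDX2* and *SOD1* and below them for *PRDX3* and *PRDX6*. In injected embryos *SOD1* had the highest mean level of the 10 genes, and *GPX2* held 7.39 and 12.9% of their summed FPKM in the NC libraries against 0.382 and 0.151% in the knockdown libraries.

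Of the 64 partner and family genes, 52 were listed for the injected embryos and 43 passed the filter. In the knockdown 1 of them rose (2.06% of all tested genes) and 3 fell (5.92% of all), among them *PSTK*, which reached the filter only through the NC libraries, and the median difference of the list was -0.02. By the study's rule 4 rose (9.48% of all) and 8 fell (15.3% of all). *TXN2*, the mitochondrial thioredoxin that serves *PRDX3*, was at 62.2 and 34.2 FPKM in the NC libraries and at 9.01 and 7.20 FPKM in the knockdown libraries (-2.38 ± 0.44, adjusted p = 0.00832). *TKT*, transketolase of the pentose phosphate pathway, was at 225 and 231 FPKM in the NC libraries and at 100 and 41.5 FPKM in the knockdown libraries (-1.80 ± 0.44, adjusted p = 0.0273). The libraries of both genes lay apart.

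*PSTK*, a kinase needed to make selenocysteine, was low, at 2.98 and 2.03 FPKM in the NC libraries and at 0.40 and a listed 0 FPKM in the knockdown libraries, and since it was tested only because of its NC level, its call is not read as a result. *ME1*, the cytosolic malic enzyme that makes NADPH, rose from 5.46 and 4.28 FPKM to 11.8 and 23.4 FPKM (1.60 ± 0.45, adjusted p = 0.0449). Of the other 3 calls, that of *TXN2* was lost without NC replicate 1 (adjusted p = 0.0563), and those of *TKT* and *ME1* without NC replicate 1, NC replicate 2 or knockdown replicate 2 (adjusted p up to 0.201 and 0.297). Of *TXN2*, *TKT* and *ME1*, 0 passed without the filter on low values (adjusted p = 0.173 for *TXN2*). *TKT* and *ME1* did not pass with median-ratio scaling or quantile normalization either, nor did *ME1* with a pseudocount of 0.1. Of *GPX3*, *GPX6*, *GPX8*, *PRDX4*, *CAT* and *CCS*, the 6 tested here of the genes nearest to the 10, 0 passed in the knockdown by limma, and 1 was higher at an unadjusted p under 0.05.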

How the data were processed

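RNA-seq values of 13 goat libraries were used. The authors aligned reads with HISAT2 2.1.0 to the goat genome ARS1, counted uniquely mapped reads with HTSeq and deposited FPKM values per gene and library. Reads shared with near-identical gene copies are left out of such values. Values of injected libraries are rounded to 2 decimals. Groups were taken from the labels, where the NC libraries are titled WT and have NC siRNA as their treatment. Fragments of the untreated libraries were recovered from the steps of the FPKM values, whole within 0.02 for 17918 of 17918 genes above 0.

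log2(FPKM + 1) was fitted with limma 3.58.1 in R 4.3.3 (eBayes with a mean-variance trend), over genes averaging 1 FPKM or more. The 9 untreated libraries entered 1 fit (9090 genes) and the 4 injected libraries another (11004 genes). Differences understate the change of low genes. All p-values are two-sided, with Benjamini-Hochberg adjustment over all genes of the fit, and a call is an adjusted p under 0.05. The study's own count model was not used, since the deposited values are not counts. Intervals are 95%. The fits were tested on simulated data. Tables and plots were made with Python 3.11.15, pandas 2.3.3, numpy 2.4.6 and matplotlib 3.10.9. Alternatives were another pseudocount, other filters, 3 rescalings, no trend, a replicate block, voom on fragments, the study's rule (unadjusted p under 0.05 and more than 2-fold) and each library left out. A crossed block was chosen after seeing the data.

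The 10 genes, the list of 64 genes and the tests were chosen with earlier results of these data known. Named are the 10 genes, *YTHDF2*, the 5 genes most like *GPX2*, and of the list at most the 6 largest called changes per comparison. Some marker genes, the genes nearest to the 10 and the next gene after *GPX2* are named besides, after their values were seen. Gene symbols of all 10 were found in a reference table of a later assembly, of which no coordinates were used.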

Additional observations from a re-analysis of the deposited data

How the results depend on the processing

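Of the values of single genes across stages under the alternatives, 452 kept direction and side of the threshold, 43 lost and 28 gained the call, and 11 reversed, all of them not called. *PRDX2* at the 4-cell stage against MII was -0.18 with median-ratio scaling, -0.42 at the same summed FPKM, -0.35 after quantile normalization and -0.24 without MII replicate 3 (up to 0.54 with a library left out), and *PRDX3* was -0.16, -0.40 and -0.32 under these rescalings and -0.012 without 4-cell replicate 3 (up to 0.28). *GPX1* at the 8-cell stage against MII was 0.29 without MII replicate 2 (down to -0.35), and *SOD2* at the 8-cell against the 4-cell stage was 0.095 at the same summed FPKM and 0.029 without 4-cell replicate 1 (down to -0.051). Against MII the rescalings brought the median difference of all genes from 0.29 and 0.37 to between -0.14 and 0.06. From 4 to 8 cells the same summed FPKM raised it from 0.07 to 0.16. The cause of the changes was not tested.

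Of the 10 genes, the count higher at the 4-cell stage against MII (2) was 4 at a mean of at least 5 FPKM, 3 with a pseudocount of 0.1, 3 by the study's rule, 3 with voom, 1 with median-ratio scaling and 0 at the same summed FPKM and after quantile normalization, and 1 to 4 with a library left out. The count higher at the 8-cell stage against MII (2) was 1 under each rescaling and with voom, and 1 to 3 with a library left out. The count lower there (2) was 4 under each rescaling, 1 without a filter, without the trend, with voom and by the study's rule, and 1 to 3 with a library left out. From 4 to 8 cells the count higher (0) was 1 at a mean of at least 5 FPKM, at the same summed FPKM and with voom, and 0 to 1 with a library left out, and the count lower (1) was 2 at a mean of at least 5 FPKM and 0 to 4. The count lower at the 4-cell stage than in MII was 0 throughout. In the knockdown the count of genes more than 2-fold higher (1) was 2 with a pseudocount of 0.1 and 0 to 3 with a library left out, and the count lower (4) was 3 to 4. A group with 1 library left was assumed to vary like the other.

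Of the list of 64 genes, the count higher in the knockdown (1) was 0 with a pseudocount of 0.1, without a filter, with median-ratio scaling and after quantile normalization, 3 at a mean of at least 5 FPKM, 2 at the same summed FPKM, 4 by the study's rule and 0 to 4 with a library left out. The count lower (3) was 0 without a filter, 1 with median-ratio scaling and after quantile normalization, 8 by the study's rule and 0 to 6 with a library left out.

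Groups share replicate numbers that the labels do not tie to a shared batch. In untreated libraries, deviations from the group means correlated at -0.508 to 0.201 for the same number and at -0.371 to 0.51 for other numbers. In injected libraries the values were -0.152 and 0.152, which mirror each other by construction with 2 libraries per group. Deviations within a group also sum to 0, so these values cannot decide whether the numbers pair libraries. With a replicate block *SOD2* lost both calls (adjusted p = 0.104 and 0.0998) and *GCLC* lost that between 4 and 8 cells (adjusted p = 0.0568). *MGST3* lost that at the 4-cell stage against MII, and *GPX4* gained one there (adjusted p = 0.0398). Then 1 gene was higher at the 8-cell stage against MII, and 0 and 1 genes of the list rose and fell in the knockdown. With the pairing crossed, 4 genes of the list rose and 7 fell.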
